A study of Mus musculus with 12 samples.

Results

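The genes of the proteasome were taken as every row whose symbol starts with Psm, a family letter from a to g and a digit, in either of the deposited count tables of ribosome pull-downs and inputs from cultured dorsal root ganglion (DRG) neurons. There were 47 such rows of 14177 genes. The row Psmc3ip matches the pattern but encodes no part of the proteasome, so the other 46 genes were described: 16 of the core particle (Psma and Psmb), 20 of the regulatory particle (Psmc and Psmd), 5 of the activators (Psme), the inhibitor Psmf1 and 4 assembly chaperones (Psmg). Psmd5, Psmd9 and Psmd10, which assemble the base of the regulatory particle, were grouped with it by their symbols. All 46 were listed for the libraries labelled Cre- and 37 for those labelled Cre+, whose table of 9112 genes leaves out any gene with fewer than 5 counts in some library. Psma3, Psmb8, Psmb10, Psme2, Psme2b and the 4 Psmg genes were listed for Cre- only. The catalytic subunit Psmb9 was listed for neither label. Every listed member passed the filter of a mean FPKM above 1.

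The proteasome is the protease that degrades proteins tagged with ubiquitin in the cytosol and nucleus. Its core particle is a barrel of stacked rings, with alpha subunits (Psma) that form the gate and beta subunits (Psmb) that line the chamber and hold the cutting sites. The regulatory particle caps the barrel: its base unfolds substrates with a ring of ATPases (Psmc), and its lid removes the ubiquitin chain. In neurons proteasomes work in cell bodies and in axons, where protein breakdown accompanies injury signalling and regrowth.

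All mice were male, 3 to 6 months old by the labels and homozygous for the RiboTag allele Rpl22HA, in which Cre switches the ribosomal protein Rpl22 to a version with an HA tag. Runx3-Cre+ mice express Cre from Runx3, a transcription factor of proprioceptive neurons, and their Runx3-Cre- littermates served to measure background. DRG neurons pooled from 5 mice per sample were purified on Percoll and cultured for 24 h, and RNA was sequenced from the material pulled down by HA antibody and from an input, 10% of the lysate set aside before that step, with 3 libraries in each of the 4 groups. The comparison of pull-down with input asks which transcripts were relatively enriched on tagged ribosomes, and the same comparison without Cre asks what the antibody and beads bring down. Levels are normalized counts, that is counts per 1000000 counts of the library after scaling with TMM, a method that sets the bulk of genes equal between libraries. They are therefore relative levels, and in these bulk samples fewer cells with a transcript cannot be told apart from less of it per cell. Levels by library were scaled within each label, in separate fits. A gene was called when the FDR, the Benjamini-Hochberg adjusted p-value of edgeR's quasi-likelihood test over all genes tested, was below 0.1.

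The sensory neuron markers were present, whereas the driver gene went against the Cre labels. All 10 sensory neuron markers were listed in both tables, whereas no lymphoid marker was listed for Cre+ and 1 of 6 for Cre-. Of 12 satellite and Schwann glia markers 7 were listed for Cre+ and 12 for Cre-. Of 6 fibroblast markers it was 4 and 6, and of 9 macrophage markers 2 and 7. Being listed therefore does not separate neurons from these cells. Runx3 had 4.28, 2.39 and 5.55 normalized counts in the inputs labelled Cre+ and 22.8, 2.07 and 11.1 in the pull-downs, which overlap (log2 fold change 1.55, SE 0.86, FDR 0.302). In the libraries labelled Cre- Runx3 rose from 4.70, 1.90 and 2.88 to 20.8, 36.0 and 51.4 (log2 fold change 3.52, SE 0.43, FDR 0.000466). Of 8 proprioceptor markers, 1 of the 6 tested was called higher in the pull-downs labelled Cre+ and 7 of the 7 tested in those labelled Cre-. Labelled Cre+ 5 of the 6 had positive fold changes (median 1.39), and the markers summed to 188 to 244 in the inputs and 376 to 537 in the pull-downs. Labelled Cre- the median was 2.69 and the sums 216 to 300 and 1265 to 1558. For these and the following marker calls, 5.39% of all genes were higher and 2.59% lower labelled Cre+, and 13% and 11.1% labelled Cre-. Satellite and Schwann glia markers summed to 2914 to 4014 normalized counts in the inputs labelled Cre+ against 1857 to 2722 in the pull-downs, and to 3306 to 4697 against 1657 to 2046 in the libraries labelled Cre-. The sensory neuron markers summed to 22196 to 29400 in the inputs labelled Cre+ and 22681 to 25060 in the pull-downs, with 3 of 10 lower, and to 25512 to 30316 and 50286 to 57857 labelled Cre-, with 5 of 10 higher. Of 5 endothelial markers 4 were listed in each table, and they summed to 47.8 to 83.2 in the inputs and 98.8 to 427 in the pull-downs labelled Cre+ (1 called higher) and to 60.4 to 89.7 and 16.2 to 115 labelled Cre- (none called). The part of these markers in the proteasome values was not tested. Whether the Cre labels were exchanged was not tested either, and groups are named as the libraries are labelled throughout. Library totals over the listed genes ran from 8886308 to 18633365 counts. The pull-downs labelled Cre+ were the least alike, with a median coefficient of variation of 45.9% over the members, against 26.5%, 15.1% and 11.7% in the inputs labelled Cre+ and the pull-downs and inputs labelled Cre-. Pull-down 1 and input 1 labelled Cre+ stood apart in the members themselves. Across the 37 members the log2 levels of pull-down 1 correlated at 0.52 and 0.46 with the other pull-downs, which correlated at 0.77 with each other, and those of input 1 at 0.86 and 0.89 with inputs that correlated at 0.99. Pull-down 1 also held the highest macrophage marker sum of the libraries labelled Cre+ (2 of 9 markers listed), 112 against 16.8 and 4.85 in the other pull-downs and 68.2, 25.8 and 31.2 in the inputs, and the endothelial sum of 427. The part of these in its proteasome levels was not tested, and the main values are also given without these libraries.

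The proteasome genes made up a smaller share of the pull-downs labelled Cre+ than of their inputs. Together the 37 genes held 0.534%, 0.362% and 0.381% of all counts on listed genes in the inputs and 0.155%, 0.165% and 0.179% in the pull-downs. In the libraries labelled Cre- the 46 genes held 0.355%, 0.353% and 0.372% of the inputs and 0.294%, 0.258% and 0.292% of the pull-downs. The ranges did not overlap in either genotype, with or without input 1 labelled Cre+, and the gap was wider in the libraries labelled Cre+. The shares are of counts on 9112 listed genes labelled Cre+ and 14177 labelled Cre-, so their sizes are not on one base between labels. The 95% Wilson interval of each share was at most 0.0045 percentage points to either side, for counting error only. On the normalized scale the 13 core genes listed for both summed to 1777, 793 and 892 in the inputs labelled Cre+ and to 422, 325 and 307 in the pull-downs. The same 13 genes summed to 834, 854 and 937 in the inputs labelled Cre- and to 648, 694 and 750.0 in the pull-downs. The 20 genes of the regulatory particle summed to 2463, 1871 and 2001 in the inputs labelled Cre+ against 1199, 1096 and 1335 in the pull-downs. Labelled Cre-, they summed to 1963, 1977 and 1998 in the inputs against 1982, 1779 and 1980 in the pull-downs, and here the groups overlapped. The plot of summed levels by library shows these sums beside Psme4, the called member that went the other way.

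**Figure D1:**
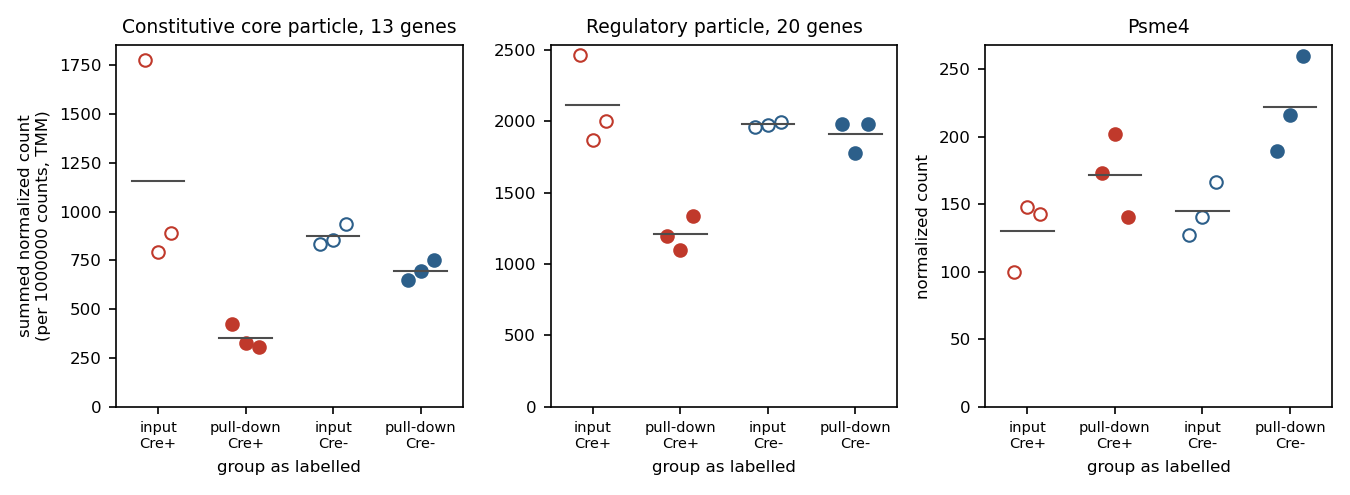
Summed normalized counts (per 1000000 counts, TMM scaled) of the 13 constitutive core particle genes and the 20 regulatory particle genes, and the normalized count of Psme4, with 1 point per library (open, input; filled, pull-down), 3 libraries per group as labelled and a line at the group mean. The core sums of the pull-downs labelled Cre+ lie between 307 and 422, below all 9 other libraries, and input 1 labelled Cre+ at 1777 is above all others. The labels were scaled in separate fits.

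Against input, 9 of the 37 members were lower in the pull-downs labelled Cre+ and none was higher, where 2.59% of the 8947 genes tested were called lower and 5.39% higher. All 9 passed a 2-fold change as well, where 2.49% of all genes were called lower and 5.17% higher at that limit. Among the core genes 6 of 13 were lower, with a median log2 fold change of -1.48, and among the regulatory genes 3 of 20, with a median of -0.85, beside a median of 0.076 over all genes tested. The regulatory median includes the base assembly chaperones Psmd5, Psmd9 and Psmd10 (median 0.083). The other regulatory genes had medians of -0.92 in the base and -1.29 in the lid. For 22 of the 37 members every pull-down lay below every input, which held for 17.9% of all genes, and for no member did every pull-down lie above every input (15.5% of all genes). Fold changes were negative for 34 of 37 members, the exceptions being Psmd5, Psmd9 and Psme4. The calls rest on all 3 inputs. Without any 1 of the 3 inputs labelled Cre+ edgeR called no member, nor any of the 8947 genes, while 10, 14 and 14 members (27%, 37.8% and 37.8%) had an unadjusted p under 0.05 in these fits, as did 12.9%, 15.9% and 15.2% of all genes. Without input 1 the median was -1.21 for the core and -0.78 for the regulatory particle, in the same direction and smaller in size. Without pull-down 1, 16 members were lower (7.14% of all genes) and none higher (11%), and the medians were -2.01 and -0.99.

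In the libraries labelled Cre- the shifts were small. Of 46 members 5 were lower (11.1% of the 11526 genes tested were) and 1 was higher (13% of all genes), so the share of calls was no larger than that of all genes. At a 2-fold limit 1 member, Psme1, was lower (5.93% of all genes) and none higher (6.06%). Every pull-down lay below every input for 14 members (18.6% of all genes) and above for 3 (18.2%). The median was -0.38 for the 16 core genes, all with negative fold changes, -0.054 for the 20 regulatory genes, of which none was called at FDR below 0.1 or had an unadjusted p under 0.05, and -0.038 over all genes. The plot of fold changes by gene sets both genotypes side by side.

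**Figure D2:**
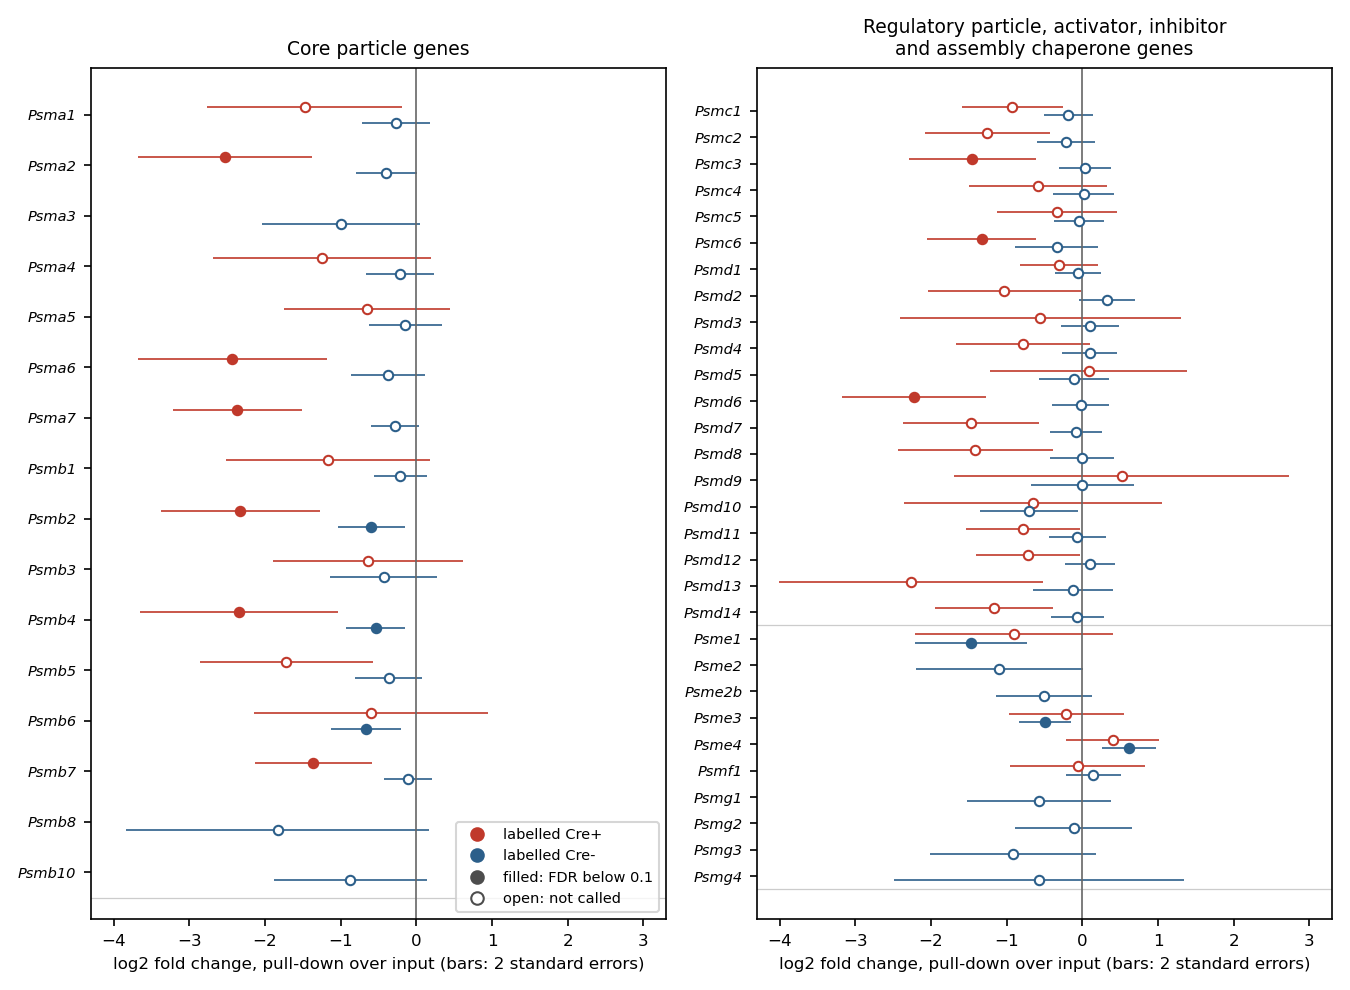
Log2 fold change of pull-down over input for each proteasome gene, with bars of 2 standard errors (edgeR, 3 pull-downs and 3 inputs), in the libraries labelled Cre+ (red) and Cre- (blue), filled where the FDR was below 0.1. Core genes labelled Cre+ lie between -2.53 and -0.60, and regulatory genes labelled Cre- cluster near 0.

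Among the alpha subunits, which form the outer rings of the core and its gate, 3 of 6 were lower in the pull-downs labelled Cre+. Psma7 (chromosome 2, 180036374 to 180042433 on the minus strand of GRCm38) had 273, 130.3 and 147 normalized counts in the inputs and 23.1, 45.8 and 38.0 in the pull-downs. This was 5.14-fold less (log2 fold change -2.36, SE 0.43, FDR 0.0399), the smallest FDR of any member, and its highest pull-down lay well below its lowest input. Psma2 fell from 210.1, 81.8 and 93.0 to 9.33, 32.4 and 24.9 (log2 fold change -2.53, SE 0.58, FDR 0.0611), the largest change of any member. Psma6 fell from 219, 68.8 and 74.9 to 20.6, 36.1 and 10.4 (log2 fold change -2.43, SE 0.62, FDR 0.0752). In all 3 genes input 1 was the highest library, and the pull-downs stayed below the other inputs as well. Without input 1 the log2 fold changes of Psma7, Psma2 and Psma6 were -1.96, -1.97 and -1.68. Psma1 (log2 fold change -1.48, FDR 0.203) and Psma4 (-1.25, FDR 0.321) were not called, and each was called lower in 1 of 16 alternatives. The least affected alpha gene, Psma5, had 46.5, 23.1 and 27.9 in the inputs and 23.4, 15.4 and 23.1 in the pull-downs, and the groups overlapped (log2 fold change -0.66, SE 0.55, FDR 0.489).

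No alpha gene was called in the libraries labelled Cre-. Psma7 had 133, 132 and 148 in the inputs and 109, 107 and 123 in the pull-downs, without overlap but close together (log2 fold change -0.28, SE 0.16, FDR 0.247). Psma2 had 93.0, 102 and 103 and 56.1, 80.1 and 90.4 (log2 fold change -0.40, SE 0.20, FDR 0.208), and Psma6 72.2, 85.3 and 87.6 and 40.3, 74.4 and 75.04 (log2 fold change -0.37, SE 0.24, FDR 0.330). Psma5 again changed least, from 19.6, 27.1 and 25.02 to 21.5, 22.5 and 20.9 (log2 fold change -0.14, SE 0.24, FDR 0.734). Psma3 had the lowest alpha value, at 4.51, 4.38 and 3.87 in the inputs against 2.57, 1.42 and 2.38 in the pull-downs (log2 fold change -0.996, SE 0.52, FDR 0.218). Per kilobase of the longest RefSeq-matched transcript its level was the lowest of all 46 genes, 1.49 normalized counts in the inputs. The other listed alpha genes had from 19.3 (Psma5) to 151 (Psma7). These ranks depend on the transcript taken. By the authors' mean FPKM over the libraries labelled Cre-, Psma3 had 2.43, above Psmb8 (2.38) and Psmg4 (1.80). By that measure Psma2 (93.8) stood above Psma7 (83.0). The alpha subunits are present in equal numbers in the particle, while the transcript levels counted per kilobase differed widely.

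The beta subunits with cutting sites in every cell are Psmb6 (caspase-like), Psmb7 (trypsin-like) and Psmb5 (chymotrypsin-like, the target of bortezomib). Psmb7 (chromosome 2, 38588036 to 38644087, minus strand) had 267, 146 and 148 normalized counts in the inputs labelled Cre+ and 71.7, 50.1 and 96.7 in the pull-downs (log2 fold change -1.36, SE 0.38, FDR 0.0920). Of its exon bases 34.9% are shared with Nek6 on the other strand, and its counts are uncertain because the sources used here do not say whether strand was used in counting. Psmb5 (chromosome 14, 54614119 to 54618022, minus strand) had 86.2, 33.1 and 42.5 in the inputs and 21.6, 11.5 and 15.9 in the pull-downs, all below the inputs but not called (log2 fold change -1.72, SE 0.57, FDR 0.120). Psmb6 (chromosome 11, 70525367 to 70527858, plus strand) had 101, 39.9 and 52.1 against 97.4, 17.8 and 11.8. Pull-down 1 was here as high as input 1, with the other pull-downs far lower, and Psmb6 had the highest fold change of the family (log2 fold change -0.60, SE 0.77, FDR 0.665). Without pull-down 1 Psmb6 was called lower (log2 fold change -2.08, SE 0.52, FDR 0.0441), so its value rests on that library. Psmb5 shares 12.1% of its exon bases with Mir686 on the same strand. The genome also holds processed pseudogenes of Psmb5, Psmb6 and Psmb7, and only uniquely mapped reads were counted. The part of these in the counts was not tested. The fold changes of the catalytic genes were not tested against each other. Without input 1 Psmb7 had a log2 fold change of -1.02 and was not called.

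Labelled Cre-, the order was another. Psmb6 was lower, with 55.0, 50.6 and 53.1 in the inputs and 31.2, 25.9 and 43.3 in the pull-downs (log2 fold change -0.66, SE 0.23, FDR 0.0738). Psmb5 had 36.6, 37.1 and 43.5 and 30.2, 25.7 and 35.0 (log2 fold change -0.37, SE 0.22, FDR 0.283), and Psmb7, the highest of the family, 137, 157 and 155 and 132, 155 and 129 (log2 fold change -0.11, SE 0.16, FDR 0.689). Only Psmb6 was called of the 3, and its call was lost when any input or pull-down 2 was left out, with log2 fold changes of -0.50 to -0.88 over all libraries left out in turn. The plot of 8 genes by library shows the 12 values of each catalytic gene.

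**Figure D3:**
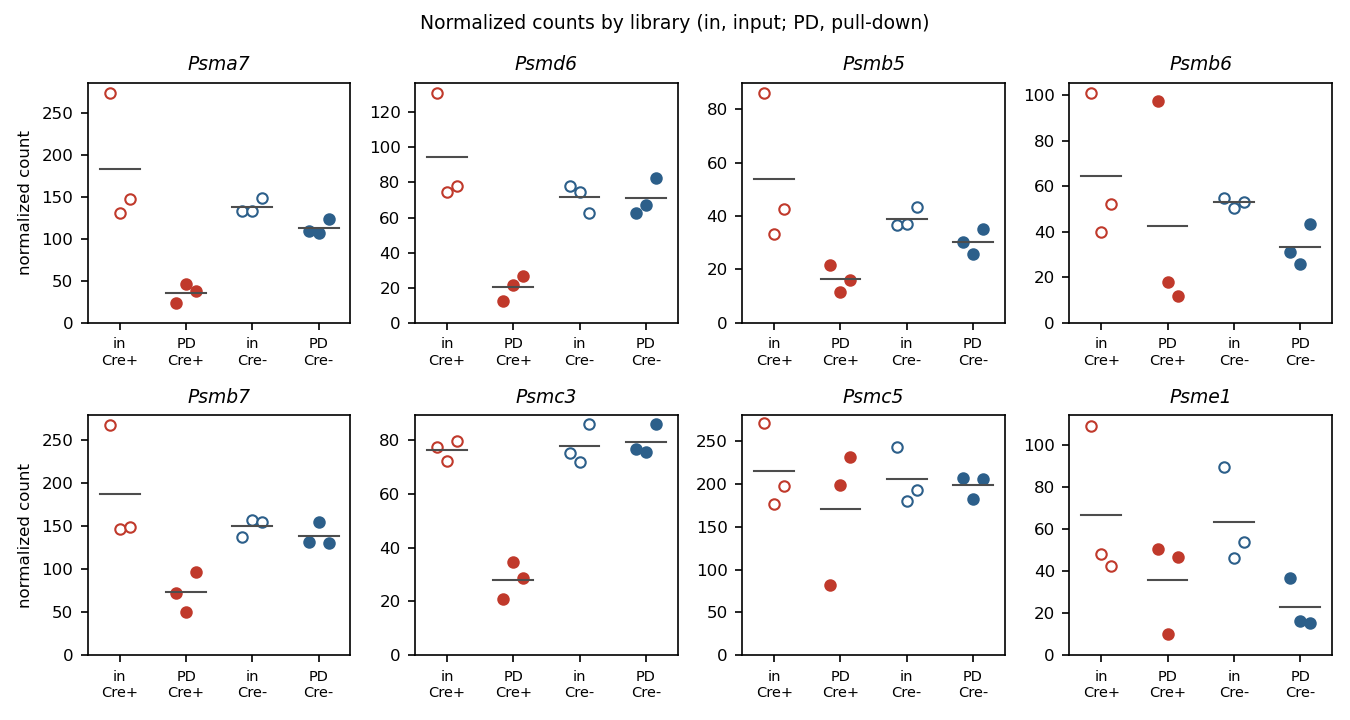
Normalized counts of 8 proteasome genes in each of 12 libraries (open, input; filled, pull-down; red, labelled Cre+; blue, labelled Cre-), with a line at each group mean of 3 libraries. Psma7, Psmd6 and Psmc3 show pull-downs labelled Cre+ below every other library, while 1 pull-down of Psmb6 sits at 97.4 with the others at 17.8 and 11.8. The labels were scaled in separate fits. In the fit of all 12 libraries the pull-downs labelled Cre+ were also the lowest for Psma7, Psmd6 and Psmc3.

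Of the beta subunits without a cutting site, which complete the inner rings, Psmb2 and Psmb4 were lower in both genotypes. Psmb2 had 160.4, 66.6 and 83.6 in the inputs labelled Cre+ and 12.9, 17.3 and 31.6 in the pull-downs (log2 fold change -2.33, SE 0.53, FDR 0.0594). Psmb4 had 155, 71.6 and 63.8 and 28.5, 23.4 and 5.54 (log2 fold change -2.34, SE 0.65, FDR 0.0906), the lowest beta value. Both were about 5-fold lower, 5.02 and 5.05 by the fitted values, and without input 1 their log2 fold changes were -1.87 and -1.82, not called. Labelled Cre-, Psmb2 went from 81.7, 57.7 and 99.8 to 55.8, 47.2 and 55.2 (log2 fold change -0.60, SE 0.22, FDR 0.0909). Psmb4 went from 66.0, 61.7 and 62.4 to 51.4, 39.8 and 39.7 (log2 fold change -0.54, SE 0.19, FDR 0.0817). In each of the 4 comparisons all pull-downs were below all inputs, although the drop of Psmb2 labelled Cre- rested on inputs that themselves ran from 57.7 to 99.8. Psmb1 and Psmb3 were not called in either genotype, with log2 fold changes of -1.17 and -0.64 labelled Cre+ and -0.21 and -0.43 labelled Cre-. Without pull-down 1 Psmb1 was called lower labelled Cre+ (log2 fold change -1.99, SE 0.58, FDR 0.0651). The calls of Psmb2 and Psmb4 labelled Cre- were lost without input 1, input 3, pull-down 2 or pull-down 3, and that of Psmb4 also without input 2, with log2 fold changes of -0.78 to -0.40 for Psmb2 and -0.66 to -0.46 for Psmb4 over all libraries left out in turn.

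Psmb8 and Psmb10 encode the inducible catalytic subunits that interferon brings into the immunoproteasome of immune and inflamed cells. They were listed for Cre- only and at low levels. Psmb8 (chromosome 17, 34197721 to 34201454) had 10.98, 4.13 and 2.65 normalized counts in the inputs and 3.46, 1.42 and 0 in the pull-downs, the lowest fold change of the beta family but not called (log2 fold change -1.83, SE 1.001, FDR 0.240). Of 16 alternatives 2 called Psmb8 lower, and its log2 fold change ran from -2.99 to -1.03 over them. Pull-down 3 held 0 counts of Psmb8, which allows up to 3 counts of its total. Psmb10 had 6.96, 7.84 and 5.91 in the inputs and 2.68, 2.17 and 6.48 in the pull-downs, with pull-down 3 among the inputs (log2 fold change -0.87, SE 0.51, FDR 0.266). The constitutive partner of Psmb8, Psmb5, had a level of 43.5 per kilobase in these inputs against 3.64 for Psmb8. Input 1 was the highest library of Psmb8 and of Psme1, and the macrophage markers, 7 of 9 listed, summed to 60.9 to 129 normalized counts in the inputs labelled Cre- and 55.8 to 78.6 in the pull-downs. Their part in these levels was not tested.

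The sequences before the start sites of the catalytic genes were read for the core of the antioxidant response element, the site through which the factor Nfe2l1 raises proteasome genes when proteasome capacity is short. The motif TGACNNNGC was searched on both strands (GCNNNGTCA on the opposite one) in the 250 bases before each RefSeq start on GRCm38.p6. Of the 46 members 39 had such a sequence and 5 of them (12.8%) held the motif, as did 11.5% of 27025 genes, a share near the background. The matches closest to a start are shown because they lie in the catalytic genes Psmb5 and Psmb6 and in Psmd9, with the 9 bases of the motif in capitals, each 5′ to 3′ on the strand of its gene.
Psmb5, chr14:54618026-54618050, minus strand: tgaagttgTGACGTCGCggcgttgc
Psmb6, chr11:70525340-70525356, plus strand: aaagagagTGACGGAGC
Psmd9, chr5:123228151-123228175, plus strand: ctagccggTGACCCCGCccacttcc
The other matches, farther from the start, were in Psmc6 and Psmd12. A match describes these letters only. The fold changes labelled Cre+ of the members with the motif ran from -1.72 in Psmb5 to 0.52 in Psmd9, across most of the range of the family. Nfe2l1 itself had a log2 fold change of 0.30 (FDR 0.499) labelled Cre+ and -0.25 (FDR 0.282) labelled Cre-.

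In the base of the regulatory particle, 2 of 9 genes were lower in the pull-downs labelled Cre+ and the median was -0.92, or -0.65 without input 1 and -0.75 without pull-down 1. The ATPase gene Psmc3 (chromosome 2, 91054009 to 91066369) had 77.5, 72.5 and 79.7 in the inputs and 20.8, 34.6 and 28.6 in the pull-downs, and here input 1 was not above the other inputs (log2 fold change -1.45, SE 0.42, FDR 0.0949). Psmc6 had 111, 84.7 and 96.6 and 36.0, 42.1 and 38.1 (log2 fold change -1.33, SE 0.36, FDR 0.0843). Without input 1 Psmc3 had -1.44 and Psmc6 -1.23, neither called. Psmc5, at the other end of the ATPase ring's values, had 271, 177 and 197 in the inputs and 82.3, 199 and 231 in the pull-downs, with only pull-down 1 below the inputs (log2 fold change -0.33, SE 0.40, FDR 0.641) and a value of 0.038 without it. The remaining ATPases Psmc1, Psmc2 and Psmc4 had every pull-down below every input without being called, at -0.92, -1.26 and -0.59. The scaffold genes of the base, Psmd1 and Psmd2, had -0.31 and -1.03, and the ubiquitin receptor Psmd4 -0.78. Psmc5 was the most abundant member per kilobase in the pull-downs of both genotypes, at 129.8 labelled Cre+ and 151 labelled Cre-.

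Labelled Cre-, the base showed no called gene, and its median was -0.048. Psmc3 had 75.3, 72.1 and 86.0 in the inputs and 76.7, 75.9 and 86.1 in the pull-downs (log2 fold change 0.032, SE 0.17, FDR 0.922), so the interval of 2 standard errors ran from -0.31 to 0.38. Psmc6 had the lowest ATPase value, at 95.1, 79.3 and 100.4 and 40.7, 84.1 and 92.7 (log2 fold change -0.34, SE 0.27, FDR 0.438), with pull-down 1 alone below the inputs and a value of -0.034 without it. In that fit Psmc2 was the lowest ATPase gene and was called (log2 fold change -0.43, FDR 0.0654). Psmc5 had 243, 181 and 193 and 207, 183 and 206 (log2 fold change -0.048, SE 0.17, FDR 0.873). Psmd2 had the highest value of the Psmd family, 96.0, 131 and 114 in the inputs and 164, 122 and 142 in the pull-downs (log2 fold change 0.33, SE 0.18, FDR 0.250), and the groups overlapped.

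The lid, which holds the deubiquitinase Psmd14, had 1 of 8 genes called labelled Cre+ and a median of -1.29, or -1.08 without input 1 and -1.49 without pull-down 1. Psmd6 (chromosome 14, 14112174 to 14120984, minus strand), a structural lid subunit, fell from 131, 74.5 and 77.9 in the inputs to 12.7, 21.5 and 26.4 in the pull-downs, 4.67-fold (log2 fold change -2.22, SE 0.47, FDR 0.0507). Without input 1 it had -1.92, not called. Psmd13 had the lowest fitted value of the regulatory particle, with 29.4, 26.2 and 27.8 against 3.89, 12.6 and 0.924, but its pull-downs spanned more than 10-fold and it was not called (log2 fold change -2.26, SE 0.87, FDR 0.161). Of 16 alternatives 4 called Psmd13 lower, and its log2 fold change ran from -3.51 to -1.73 over them. Psmd14 had 136, 112 and 106 and 74.4, 49.6 and 33.9 (log2 fold change -1.17, SE 0.39, FDR 0.121), and its partner Psmd7 missed the call narrowly (log2 fold change -1.47, SE 0.45, FDR 0.102). Psmd8 (-1.41, FDR 0.143), Psmd11 (-0.78, FDR 0.241) and Psmd12 (-0.72, FDR 0.239) were not called, and were called lower in 4, 1 and 2 of 16 alternatives. In 7 of the 8 lid genes every pull-down was below every input, the exception being Psmd3, whose pull-downs ran from 1.89 to 62.8. Labelled Cre- the 8 lid genes lay between -0.12 and 0.11, with a median of -0.042 and no calls. Psmd6 had there 78.2, 74.6 and 62.5 in the inputs and 62.5, 67.3 and 82.8 in the pull-downs (log2 fold change -0.019, SE 0.19, FDR 0.959).

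Psmd5, Psmd9 and Psmd10 assemble the base and do not stay in the finished proteasome. Labelled Cre+ their median was 0.083 and none was called, but the direction rested on pull-down 1, the highest pull-down of all 3 genes. Without it Psmd5, Psmd9 and Psmd10 had log2 fold changes of -0.81, -2.02 and -1.55, with FDRs of 0.293, 0.132 and 0.227. Psmd9 had 32.1, 8.26 and 10.6 in the inputs and 64.8, 5.61 and 2.54 in the pull-downs, so that 1 pull-down was above all inputs and the others below them (log2 fold change 0.52, SE 1.11, FDR 0.810), the highest value of any member. Psmd5 had 37.3, 33.5 and 31.3 and 70.2, 12.6 and 25.4 (log2 fold change 0.083, SE 0.65, FDR 0.953). Psmd10 had 21.7, 11.6 and 14.0 and 19.6, 1.46 and 9.01 (log2 fold change -0.65, SE 0.85, FDR 0.673), and labelled Cre- it had the lowest value of the Psmd family, from 12.2, 12.5 and 17.7 to 8.09, 7.18 and 10.9 (log2 fold change -0.70, SE 0.32, FDR 0.166). The wide standard errors labelled Cre+ leave room for changes of more than 2-fold in either direction in Psmd5 and Psmd9.

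The activators dock on the core in place of the regulatory particle, and their genes differed from one another. Psme4 encodes a large nuclear activator and was the only member called higher. In the libraries labelled Cre- it rose from 127, 141 and 166 to 189, 216 and 259.7, every pull-down above every input (log2 fold change 0.61, SE 0.18, FDR 0.0373), 1.53-fold. Labelled Cre+ it had 99.5, 148 and 143 in the inputs and 173, 202 and 141 in the pull-downs, with an overlap and no call (log2 fold change 0.40, SE 0.31, FDR 0.446). At 6491 bases its transcript was also the longest of the family. The call labelled Cre- was lost without input 1, input 2 or pull-down 3, where log2 fold changes were 0.53, 0.59 and 0.50.

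Psme1, a subunit of the activator that interferon induces, went the other way. Labelled Cre- it fell 2.78-fold, from 89.7, 46.4 and 54.0 to 36.9, 16.1 and 15.3 (log2 fold change -1.47, SE 0.37, FDR 0.0197), the smallest FDR of the family in these libraries, and the call was kept with each library left out in turn. Its partner Psme2 had 5.49, 3.797 and 4.85 in the inputs and 3.12, 1.15 and 2.31 in the pull-downs (log2 fold change -1.09, SE 0.55, FDR 0.2002), and the near copy Psme2b, which may share reads with Psme2, 12.9, 13.1 and 13.7 and 12.4, 7.93 and 7.67 (log2 fold change -0.51, SE 0.32, FDR 0.310). For all 3 genes the pull-downs lay below the inputs. Labelled Cre+ Psme1 had 109, 48.0 and 42.5 and 50.5, 9.88 and 46.6, which overlap (log2 fold change -0.90, SE 0.66, FDR 0.426), and the fold change was -0.34 without input 1 and -0.44 without pull-down 2. Psme3, which forms a nuclear activator of its own, fell from 155, 173 and 185 to 104, 119.5 and 142 labelled Cre- (log2 fold change -0.49, SE 0.17, FDR 0.0758). Labelled Cre+ its pull-downs of 70.8, 126 and 193 surrounded the inputs of 144, 149.7 and 158 (log2 fold change -0.21, SE 0.38, FDR 0.767). The call of Psme3 was lost without input 2, input 3, pull-down 1 or pull-down 2, and its log2 fold change ran from -0.60 to -0.37 over all libraries left out in turn.

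The inhibitor gene Psmf1 stayed close to 0 in both genotypes. It had 47.8, 50.7 and 42.7 in the inputs labelled Cre+ and 61.6, 32.3 and 41.4 in the pull-downs (log2 fold change -0.06, SE 0.44, FDR 0.948), and 43.7, 48.3 and 45.6 and 51.4, 49.8 and 51.2 labelled Cre- (log2 fold change 0.15, SE 0.18, FDR 0.632). The chaperones Psmg1 to Psmg4, which put the alpha ring together, were listed for Cre- only and had negative fold changes from -0.91 (Psmg3, FDR 0.286) to -0.11 (Psmg2, FDR 0.872), with none called. Psmg3 had 2.74, 4.38 and 4.93 in the inputs and 1.39, 2.71 and 2.31 in the pull-downs, and Psmg2 5.49, 7.68 and 7.13 and 7.48, 5.01 and 6.25. At under 13 normalized counts in every library these genes were among the lowest of the members.

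Genes that work with the proteasome were taken from lists chosen with earlier results of these data known. For these lists too the shares over all genes are 5.39% higher and 2.59% lower labelled Cre+, and 13% higher and 11.1% lower labelled Cre-. Of 10 listed assembly and associated factors, 2 were lower labelled Cre+: Pomp, which matures the core particle (log2 fold change -1.76, SE 0.39, FDR 0.0586), and Txnl1, a thioredoxin associated with the proteasome (-1.27, SE 0.33, FDR 0.0771). Their means went from 229 to 67.6 and from 135 to 55.9 normalized counts. The extremes were Shfm1, a small lid subunit (-2.25, FDR 0.124), and Ubr4, a ubiquitin ligase (1.48, FDR 0.102). Labelled Cre-, 3 of the 10 were higher and none lower: Ubr4 (0.90, FDR 0.015), AI314180, the scaffold also known as Ecm29 (0.63, FDR 0.0157), and the ligase Ube3c (0.54, FDR 0.0423). Pomp had -0.11 there (FDR 0.741). The lowest there was Adrm1, the ubiquitin receptor of the base (-0.52, FDR 0.328).

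Few genes upstream of the proteasome were called. No ubiquitin or activating-enzyme gene of 4 was called labelled Cre+, with Ubb lowest (-1.20, FDR 0.133) and Uba6 highest (0.038, FDR 0.964). Labelled Cre- 1 of 5 was higher, the activating enzyme Uba6 (0.88, FDR 0.00749). Of the shuttles and segregase genes, which carry ubiquitinated proteins to the proteasome, none of 10 was called labelled Cre+, from Ufd1l (-1.26, FDR 0.128) to Nploc4 (0.49, FDR 0.368). Labelled Cre- 1 of 11 was higher, the segregase Vcp (0.64, FDR 0.0314), which was also the highest, with Ufd1l lowest again (-0.36, FDR 0.134). None of 5 transcription factors was called in either genotype, with Foxo3 (1.84, FDR 0.185) and Stat3 (-0.22, FDR 0.632) at the ends labelled Cre+ and Stat3 (0.23, FDR 0.325) and Foxo1 (-0.25, FDR 0.721) labelled Cre-. Of 6 tested genes of the interferon response and antigen presentation, none was called labelled Cre+, from Tapbp (-1.62, FDR 0.162) to Nlrc5 (2.83, FDR 0.216). Labelled Cre- B2m, the light chain of MHC class I, was lower (-1.24, FDR 0.053) and the peptide loader Tapbp higher (0.88, FDR 0.0466), while Irf1 had the highest value (1.47, FDR 0.186). At an unadjusted p under 0.05, 17 of 37 proteasome genes (45.9%) passed labelled Cre+, where 23.7% of all genes did, and 6 of 46 (13%) labelled Cre-, where 31.1% did.

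The difference between the enrichments was tested directly in a fit of all 12 libraries. Of 37 members 3 had a lower fold change labelled Cre+ than labelled Cre- (2.08% of 9006 genes did) and none a higher one (2.25%). These were Psma7 (difference -2.04, SE 0.45, FDR 0.0430), Psmd6 (-2.17, SE 0.48, FDR 0.0445) and Psmc3 (-1.45, SE 0.38, FDR 0.0767). The median difference was -1.22 for the core and -0.82 for the regulatory particle, against 0.13 over all genes, and 31 of 37 were negative. The lid had a median of -1.22 and the base of -0.85, each with all genes negative, and the activators 0.31. Without input 1 labelled Cre+ the medians were -0.87 for the core, -0.76 for the regulatory particle, -1.02 for the lid and -0.67 for the base. Only Psma7 was called in that fit (-1.64), where 0.799% of all genes were lower and 0.422% higher, while Psmd6 had -1.86 and Psmc3 -1.44. Without any 1 input or without pull-down 3 labelled Cre- no member was called. In these 4 fits 0.333% to 0.677% of all genes were lower and 0.111% to 0.411% higher. Each of the 4 had 12 members (32.4%) at an unadjusted p under 0.05, against 14% to 15.6% of all genes. The call of Psmc3 was also lost without input 2 or 3 labelled Cre+ or pull-down 2 labelled Cre-, with differences of -1.48, -1.42 and -1.48. Psmb6 (0.074), Psme1 (0.60), Psme3 (0.31), Psmd5 (0.21), Psmd9 (0.53) and Psmd10 (0.069) were the members with a positive difference, none of them called. Without pull-down 1 labelled Cre+ the difference was negative for Psmb6 (-1.41), Psmd5 (-0.69), Psmd9 (-2.01) and Psmd10 (-0.85), and 13 members were called lower (7.51% of all genes). These comparisons share libraries with the enrichments above and are no separate evidence.

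The pull-downs and the inputs of both labels were also set side by side. Pull-downs labelled Cre+ had lower fitted values than those labelled Cre- for 29 of 37 members, with medians of -0.82 for the core and -0.73 for the regulatory particle beside 0.11 for all genes. Only Psma7 was called lower (-1.58, SE 0.38, FDR 0.0942; 1.57% of 9006 genes were) and none was higher (1.32%), and 9 members (24.3%) had an unadjusted p under 0.05, as did 19.6% of all genes. That call was lost without pull-down 3 labelled Cre+ or any pull-down labelled Cre-. Without pull-down 1 labelled Cre+ 7 members were lower (7.26% of all genes) and 0 higher (8.31%). In that fit 16 members (43.2%) had an unadjusted p under 0.05, as did 27.3% of all genes. In the inputs no member and no gene was called by edgeR's quasi-likelihood test in either direction (0% of 9006 genes), with 1 member (2.7%) and 185 genes (2.05%) at an unadjusted p under 0.05. Without input 2 or input 3 labelled Cre+ 9 and 5 members had such a p (24.3% and 13.5%), as did 3.86% and 3.15% of all genes. Without input 1 labelled Cre+ 1 member did (2.7%, all genes 3.94%), and without any 1 input labelled Cre- 0 did. With DESeq2 1 gene was called and with the exact test of edgeR also 1, no member in either. All 13 core genes had a higher mean in the inputs labelled Cre+, with a median of 0.44, but this came from input 1, since the median was 0.022 without it. The regulatory median went from 0.17 to 0.049 in the same way.

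Transcript length moved with these values. The members' transcripts had a median of 1541 bases labelled Cre+, against 3512 bases over all genes tested, and core genes (median 1160 bases) were shorter than regulatory genes (1710.5 bases). Each member's length was that of its longest RefSeq-matched transcript, 2911 bases for Psma2 and 4397 for Psmd5. Shorter transcripts were not tried, and the correlations, bins and trend below rest on these lengths. Across all genes the fold change labelled Cre+ rose with length (Spearman's rho 0.53 over 8905 genes), and across the 37 members rho was 0.43; genes are not independent replicates. Labelled Cre- rho was 0.36 over 11469 genes and 0.54 over 46 members. Genes of 1000 bases or less had a median fold change of -1.23 labelled Cre+ and the 5 members among them -1.72. For genes over 1000 and up to 2000 bases the medians were -0.73 for all genes and -1.25 for 21 members, and over 2000 and up to 4000 bases -0.15 and -0.55 for 9 members. In the libraries labelled Cre- the medians in the same bins were -0.61, -0.31 and -0.075 for all genes and -0.57, -0.14 and -0.063 for 9, 25 and 10 members. In each of these bins the members' median labelled Cre+ was below that of all genes. Labelled Cre- it was above by less than 0.2 in each bin, and single members lay on both sides.

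**Figure D4:**
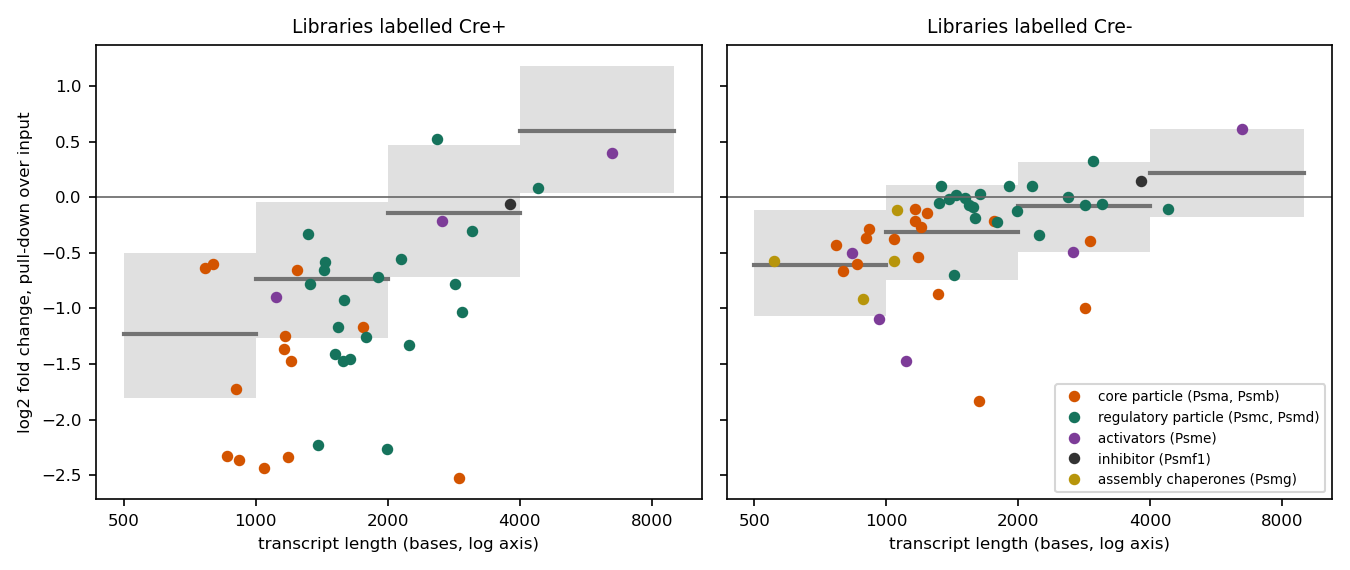
Log2 fold change of pull-down over input against transcript length (bases, log axis) for each proteasome gene, coloured by role, in the libraries labelled Cre+ and Cre-. Grey bars and lines give the interquartile range and the median of all genes tested in 4 length bins, the outer bins drawn only to the axis ends, and the members labelled Cre+ lie mostly below the median lines.

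With a smooth trend on length removed, the core median was -0.58 labelled Cre+ and 0.052 labelled Cre-, and the regulatory median -0.34 and 0.23. With input 1 left out as well, a fit added after seeing the data, the medians labelled Cre+ were -0.53 and -0.47. The shift labelled Cre- thus changed sign for both particles, and that labelled Cre+ kept its direction at a smaller size. The part that length itself plays was not tested.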

How the data were processed

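RNA from HA pull-downs and inputs of cultured DRG neurons was sequenced in 12 libraries, 3 per group. The authors aligned reads to mm10 with STAR and deposited, per genotype, HTSeq counts per gene from uniquely mapped reads, unnormalized, with a mean FPKM per gene that the authors computed over the libraries of a table. The authors' own fold changes, p-values and normalized columns were not used. The columns of the table for the samples labelled Cre+ are named almost like the Cre- titles and were assigned through the sample descriptions, as groups, so their numbers only tell libraries apart. Genes whose mean FPKM exceeded 1 entered edgeR 4.0.16 (TMM, glmQLFit, glmQLFTest) in R 4.3.3, without a replicate block, and were called at FDR below 0.1 over all genes tested. SE is the log2 fold change divided by the square root of F. All members are accounted for, with values by library for catalytic subunits, called genes and the extremes of each family. Members, lists and tests were chosen with earlier results of these data known. DESeq2 1.42.0, other filters, scalings, thresholds and fits, and each library left out were alternatives. Lengths and coordinates came from GENCODE M21. The longest protein-coding transcript of a gene, RefSeq-matched where available, gave its length. Start-site sequences came from RefSeq on GRCm38.p6. Counts without molecular identifiers are not independent molecules. The fits were run on counts simulated from their own estimates with planted changes. That run checked the code and is no evidence for the calls above.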

Additional observations from a re-analysis of the deposited data

Results flagged for a closer look

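In 3 proteasome genes the change from input to pull-down differed between the genotypes as labelled, by a test of the difference itself over all 12 libraries (edgeR, FDR below 0.1 over 9006 genes). The log2 fold change was lower labelled Cre+ than labelled Cre- by -2.04 in Psma7, a subunit of the core's gate ring, by -2.17 in Psmd6, a structural subunit of the lid, and by -1.45 in Psmc3, an ATPase of the base. In all 3 the pull-downs labelled Cre+ were lower than the other 9 libraries. Runx3 went against the labels in these libraries, while the proprioceptor markers had positive median log2 fold changes under both, 1.39 labelled Cre+ and 2.69 labelled Cre-. Whether the labels were exchanged was not tested, and the groups are named here as labelled. Leaving out single libraries ended the call of each of the 3 genes in some fits, with differences of -2.10 to -1.64 for Psma7, -2.24 to -1.86 for Psmd6 and -1.53 to -1.39 for Psmc3 in those fits or without input 1 labelled Cre+. The pull-downs labelled Cre+ also varied more between libraries than any other group.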

How the results depend on the processing

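The direction of the core and regulatory medians labelled Cre+ was the same under every alternative run, while the number of called genes moved widely. The share of all genes lower in the same fit stands in brackets, and for each library left out at the end of the paragraph. Of 9 members lower labelled Cre+ (2.59%), the count was 15 with DESeq2 (6.91%), 16 when scaled by library size alone (8.33%), 14 with edgeR's exact test (5.73%), 21 with all 12 samples in one fit (13.3%), 1 at FDR below 0.05 (0.279%), and 0 to 16 with each library left out. Of the 5 lower labelled Cre- (11.1%) it was 10 by library size alone (20.5%), 0 with all 12 samples (2.4%), 1 at FDR below 0.05 (7.47%), 1 with a 2-fold limit (5.93%), and 1 to 6 with each library left out. The 1 higher was 0 by library size alone, with all 12 samples and with a 2-fold limit, where 8.02%, 3.91% and 6.06% of all genes were higher, and 0 to 1 with each library left out. Of the 3 with a lower difference (2.08%) it was 9 with DESeq2 (5.1%), 5 with upper-quartile scaling (2.4%), 7 by library size alone (3.13%) and 0 to 13 with each library left out. Of the 1 lower between pull-downs (1.57%) it was 6 with DESeq2 (5.52%), 2 by library size alone (2.33%), 4 with the exact test (3.79%), 13 with all 12 samples (9.56%), 0 at FDR below 0.05 (0.455%) and 0 to 7 with each library left out. With each library left out, the share of all genes lower ran from 0% to 7.14% labelled Cre+ and from 6.92% to 15% labelled Cre-. It ran from 0.333% to 8.09% for the difference and from 0.167% to 7.26% between pull-downs. The share of all genes higher labelled Cre- ran from 8.62% to 15.7%. The cause of these changes was not tested.

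The core median labelled Cre+ was -0.58 with the length trend removed, -0.53 with input 1 left out as well (added after seeing the data) and -2.01 to -1.21 with each library left out, and the regulatory median -1.04 with upper-quartile scaling, -1.29 by library size alone, -0.34 with the length trend removed, -0.47 with input 1 left out as well and -0.99 to -0.78 with each library left out. Labelled Cre- the core median was -0.63 by library size alone, 0.052 with the length trend removed and -0.48 to -0.29 with each library left out, and the regulatory median -0.29, 0.23 and -0.069 to 0.022. Scaling by library size alone moved the median of all genes from 0.076 to -0.36 labelled Cre+ and from -0.038 to -0.27 labelled Cre-, so its lower values are relative to that shift. With a replicate block labelled Cre-, 1 member was higher and 6 were lower, and over all genes 1513 were higher and 1378 lower against 1494 and 1278 without it. At an unadjusted p under 0.05 it was 9 members (19.6%) with the block and 6 (13%) without it, against 32.5% and 31.1% of all genes. Inputs were set aside from the lysates before pull-down, so the blocked fit is given beside the other. Same-numbered pull-downs and inputs correlated at 0.067, 0.028 and 0.12 in their deviations, all near 0, and although each sample correlated best with its own number, input 2 did so by 0.028 against 0.025 with pull-down 1, so the numbers were not taken to pair the samples. No block was fitted labelled Cre+, where the column numbers could not be tied to those of the samples. DESeq2 called 1219 genes higher and 618 lower labelled Cre+ where edgeR called 482 and 232. Depth limits Psmg4 and Psmb8 most, which fell to 1 and 0 counts in a pull-down.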
